A study of Mus musculus with 6 samples.

Results

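The genes described here are the WNT ligands, their Frizzled receptors and co-receptors, and the genes that transmit, inhibit or feed back on the signal. They were picked by symbol, with earlier results of these data known. In the table of mouse embryonic stem cells, 63 of the 23999 gene symbols matched. These belong to the Wnt, Fzd, Dkk, Sfrp, Rspo and Axin genes or to a list of further pathway genes. The genotype label of all 6 samples is a "−5 floxed" element together with exogenous mNanogV5, a Nanog copy with a V5 tag. After plating in 6-well plates, 3 samples received ethanol, the vehicle, and 3 received tamoxifen (4OHT) over 6 days; 4OHT is a common switch for Cre recombinases that carry an oestrogen receptor domain. The labels name no Cre, clone, passage or separate culture, so the p-values measure the spread between these samples, which may be technical. No line without the floxed element is among them, so removal of the element and any other action of 4OHT cannot be told apart. The series title places the study on a Nanog enhancer, and the comparison asks how these genes stood after 4OHT.

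WNT proteins are secreted, lipid-modified ligands that bind Frizzled receptors and the co-receptors LRP5 and LRP6. Binding keeps a complex built on AXIN, APC and GSK3 from marking β-catenin for destruction, and β-catenin then acts with TCF/LEF factors on target genes, several of which encode inhibitors of the pathway. In mouse embryonic stem cells WNT signalling favours self-renewal, and TCF7L1 (also called TCF3) represses pluripotency genes, Nanog among them, when the signal is low.

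Levels are given as CPM, the counts per 1e+06 counts of a library after scaling between libraries. Depth was uneven: 5 libraries held between 20030423 and 55194644 counts and 4OHT replicate 2 held 515388, so 1 read there was worth 1.90 CPM, and 14 of the 54 tested genes of the set had no read in it. Of the 54, 37 had under 10 reads there. Nanog, which checks the labels, stood at 632, 662 and 646 CPM in the vehicle libraries and 177, 171 and 192 CPM in the 4OHT libraries (a log2 fold change of -1.82, SE 0.06, edgeR adjusted p = 2.91e-14). The exogenous copy may add to this count. Pluripotency markers were high in both groups: the summed level of Pou5f1, Sox2, Zfp42, Esrrb, Utf1 and Dppa5a was 5037 to 5168 CPM in vehicle and 4765 to 5024 CPM in 4OHT cells, with 1 of the 6 higher and 2 lower.

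Of the 63 genes, 54 had 10 or more counts in vehicle replicate 1 or 4OHT replicate 1 and were tested. The other 9 are taken as not expressed at this depth: Wnt1, Wnt2, Wnt7a, Wnt9b, Wnt10b, Wnt16, Dkk2, Dkk4 and Rspo2. Just above the limit stood Lgr5, with 10 counts in the higher of these libraries, and Wif1 with 13, and just below it Wnt16 and Rspo2 with 8. Wnt4, Wnt8a, Wnt8b, Lgr5, Rspo3 and Dkk1 reached the limit in only 1 of the 2 libraries, so being tested at all was tied to their difference. After 4OHT 11 of the 54 genes were higher and 8 lower at an edgeR adjusted p of at most 0.05, beside 11.1% higher and 10.8% lower (21.9% in all) of the 15814 genes tested in the whole table. The 19 calls are 35.2% of the 54, and the median log2 fold change of the 54 was 0.00 beside -0.01 over all tested genes. The set was chosen with earlier results of these data known, so its shares are a description and not a test. The CPM values of the groups did not overlap for 23 of the 54, beside 30.2% of all tested genes; 4OHT was above vehicle for 15 (12.8% of all) and below for 8 (17.4%). Of the 54 tested genes of the set 9 were called with a change of at least 1 on the log2 scale, beside 4.36% of all tested genes. DESeq2 called 5 genes of the set higher and 1 lower, beside 4.34% and 3.14% of the genes for which it gave an adjusted p, and without 4OHT replicate 2 it called 11 and 4, beside 8.18% and 7.31%. Limma-voom with quantile scaling called 11 and 4, beside 7.65% and 6.25%, and edgeR with same-numbered libraries paired called 12 and 9, beside 13.4% and 14%.

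**Figure D1:**
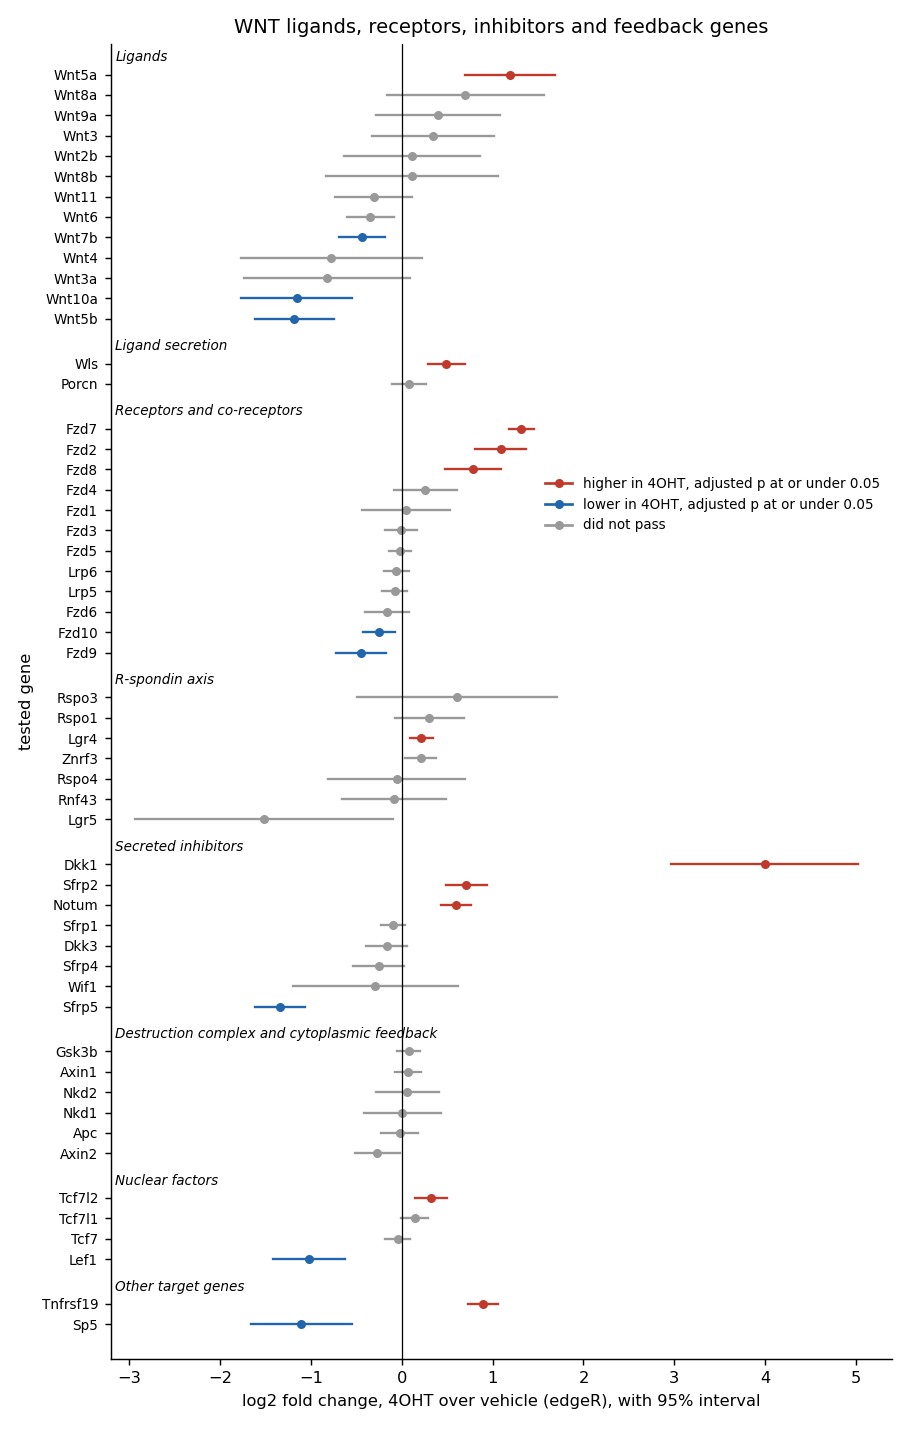
Log2 fold change of 4OHT over vehicle with its 95% interval for the 54 tested genes, grouped by role; red and blue mark genes that passed at an adjusted p of 0.05. Dkk1, tested only through its 4OHT counts, lies far to the right with a wide interval (2.96 to 5.02). Fzd7 lies to the right with a narrow one (1.18 to 1.45), and the 6 genes of the destruction complex and its feedback lie between -0.27 and 0.08.

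The promoters of 5 genes are shown first because their genes moved most or are textbook targets of TCF/LEF factors: Fzd7, Dkk1 and Tnfrsf19 (higher), and Sp5 and Sfrp5 (lower). They run from 250 bases before to 50 after the start site, are RefSeq sequences of GRCm38.p6 read 5′ to 3′ on the gene's own strand, and are not in the coordinates of the authors' build, mm9. Capitals mark each match, on either strand, to the core TCF/LEF letters CTTTGA, so that a match on the other strand reads as its reverse complement; a longer form, CTTTGAT, which contains the first, was also searched.
Fzd7, chr1:59481897-59482196, plus strand: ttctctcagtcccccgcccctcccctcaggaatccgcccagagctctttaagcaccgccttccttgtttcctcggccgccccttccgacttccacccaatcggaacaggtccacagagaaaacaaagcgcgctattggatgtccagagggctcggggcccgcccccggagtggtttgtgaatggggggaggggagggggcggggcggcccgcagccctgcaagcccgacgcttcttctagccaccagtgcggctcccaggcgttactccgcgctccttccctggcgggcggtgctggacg
Dkk1, chr19:30549447-30549746, minus strand: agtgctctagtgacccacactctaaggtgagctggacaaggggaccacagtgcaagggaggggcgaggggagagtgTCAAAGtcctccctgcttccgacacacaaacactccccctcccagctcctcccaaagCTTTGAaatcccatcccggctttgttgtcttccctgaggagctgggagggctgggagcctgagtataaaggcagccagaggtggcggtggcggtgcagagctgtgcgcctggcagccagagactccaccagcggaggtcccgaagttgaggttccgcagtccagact
Tnfrsf19, chr14:61037938-61038237, minus strand, 1 of 2 listed starts: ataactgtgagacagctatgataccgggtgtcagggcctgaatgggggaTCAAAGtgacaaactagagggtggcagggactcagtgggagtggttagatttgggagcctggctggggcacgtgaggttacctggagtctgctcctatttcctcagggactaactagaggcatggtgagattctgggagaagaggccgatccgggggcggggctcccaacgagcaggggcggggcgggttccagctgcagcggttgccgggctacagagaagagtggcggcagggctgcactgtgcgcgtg
Sp5, chr2:70474673-70474972, plus strand: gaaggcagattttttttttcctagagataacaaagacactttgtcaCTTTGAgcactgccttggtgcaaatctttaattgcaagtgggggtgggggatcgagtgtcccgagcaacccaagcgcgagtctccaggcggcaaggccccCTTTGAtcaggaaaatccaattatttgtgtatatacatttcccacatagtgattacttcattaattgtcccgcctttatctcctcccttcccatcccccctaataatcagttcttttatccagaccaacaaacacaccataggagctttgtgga
Sfrp5, chr19:42202203-42202502, minus strand: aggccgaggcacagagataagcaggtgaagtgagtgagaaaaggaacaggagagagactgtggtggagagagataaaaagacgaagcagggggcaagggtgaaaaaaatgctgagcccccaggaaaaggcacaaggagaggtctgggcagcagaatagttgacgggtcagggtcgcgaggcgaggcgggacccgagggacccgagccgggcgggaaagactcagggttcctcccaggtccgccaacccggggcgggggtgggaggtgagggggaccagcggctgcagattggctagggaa
Dkk1 holds matches that begin 174 and 117 bases before the start, Sp5 at 204 and 104, and Tnfrsf19 at 201, while the windows of Fzd7 and Sfrp5 hold none. Where a gene had more than 1 listed start, the window with the most matches was printed. For Tnfrsf19 this is the window with the match, and its other listed window holds none. RefSeq promoters were found for 41 of the 63 symbols (51 windows). CTTTGA was in 8 of these 51 (15.7%), beside 16.0% of all 32851 windows, and CTTTGAT in 4 (7.84%), beside 3.73%. The windows with the shorter core belong to Dkk1, Fzd1, Gsk3b, Lef1, Sp5, Tnfrsf19, Wnt11 and Wnt5b, which include genes that rose, fell and did not pass. A match is a string of letters, not a shown binding site.

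Among the ligands Wnt5a rose and Wnt5b, Wnt10a and Wnt7b fell, while 9 of 13 tested Wnt genes did not pass. Of all tested genes 11.1% rose and 10.8% fell. Wnt5a, a ligand best known for β-catenin-independent signalling, stood at 0.851, 0.450 and 0.767 CPM in vehicle and 1.53, 1.90 and 1.91 CPM in 4OHT cells. All 4OHT values lay above all vehicle values, although the 1.90 CPM of 4OHT replicate 2 is a single read, and the log2 fold change was 1.19 (SE 0.24, edgeR adjusted p = 0.000861). Its close relative Wnt5b moved the other way, from 2.23, 2.55 and 2.11 CPM to 1.13, 1.90 and 0.776 CPM. The groups did not overlap, although the 1.90 CPM of 4OHT replicate 2 is again a single read (log2 fold change -1.18, SE 0.21, edgeR adjusted p = 0.00025). DESeq2 called neither gene (adjusted p = 0.234 for Wnt5a and 0.196 for Wnt5b), and it called both without 4OHT replicate 2 (0.00586 and 0.000644). Per length Wnt5b remained the higher of the pair: Wnt5a went from 0.0881 ± 0.0271 to 0.228 ± 0.0274 CPM per kb of exon and Wnt5b from 0.865 ± 0.0852 to 0.478 ± 0.217 (SD, n = 3).

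Wnt10a, a ligand of β-catenin signalling, stood at 1.19, 0.749 and 1.23 CPM in vehicle and at 0.402, 0 and 0.646 CPM in 4OHT cells (a log2 fold change of -1.15, SE 0.29, edgeR adjusted p = 0.00667). Every 4OHT library was below every vehicle library, but in 4OHT replicate 2 this is an absence of reads. There 1 read is worth 1.90 CPM, above every vehicle value, so that library says little about a fall. Without 4OHT replicate 1 the edgeR adjusted p was 0.121. Wnt7b fell by less, from 7.38, 7.49 and 8.63 CPM to 5.39, 3.80 and 6.30 CPM (a log2 fold change of -0.44, SE 0.12, edgeR adjusted p = 0.0119). The groups did not overlap here either, although the 3.80 CPM of 4OHT replicate 2 is 2 reads. The edgeR adjusted p was 0.135 without 4OHT replicate 1 and 0.0748 without vehicle replicate 3. DESeq2 gave Wnt7b an adjusted p of 0.481 and gave none for Wnt10a. Without 4OHT replicate 2 its adjusted p was 0.0477 for Wnt7b and 0.0726 for Wnt10a. Limma-voom called neither gene. Wnt6 was the most abundant ligand per length, with 3.50 ± 0.375 CPM per kb of exon in vehicle (SD, n = 3) beside 1.60 ± 0.141 for Wnt7b and 0.865 ± 0.0852 for Wnt5b. Its level was 7.02, 7.39 and 8.59 CPM in vehicle and 5.57, 9.51 and 6.43 CPM in 4OHT cells, with overlap through 4OHT replicate 2, where the value is 5 reads. Its log2 fold change was -0.34 (SE 0.12, edgeR adjusted p = 0.0525), and the adjusted p was 0.0243 when same-numbered libraries were paired, 0.0453 without vehicle replicate 1 and 0.00966 without 4OHT replicate 3.

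The other 8 tested ligands were sparse. Wnt11 had a level of 1.58 ± 0.0618 CPM in vehicle and a log2 fold change of -0.31 (95% interval -0.73 to 0.12). Wnt2b, Wnt3, Wnt3a, Wnt4, Wnt8a, Wnt8b and Wnt9a had vehicle means between 0.213 CPM for Wnt8a and 0.495 CPM for Wnt9a, and their log2 fold changes ran from -0.82 for Wnt3a to 0.70 for Wnt8a. Their intervals were wide: that of Wnt3a, a strong activator of β-catenin signalling, reached from -1.74 to 0.09, and that of Wnt8a from -0.16 to 1.56. Summed per length over all 19 genes, the ligands came to 7.46, 7.61 and 8.28 CPM per kb in vehicle and 5.78, 7.08 and 6.14 CPM per kb in 4OHT cells. With 3 against 3 samples an exact permutation test cannot give a two-sided p below 0.1, so sums and shares are given with their spread and without a test.

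Of the genes for ligand secretion, Wls rose and Porcn did not pass. Wls, the carrier that takes WNT proteins to the cell surface, went from 9.06, 9.34 and 10.4 CPM to 12.9, 11.4 and 14.1 CPM. The groups did not overlap (log2 fold change 0.49, SE 0.10, edgeR adjusted p = 0.000839; 0.166 in DESeq2). Porcn, the acyltransferase that adds the lipid, stood at 14.7, 14.3 and 13.7 CPM and at 15.8, 19.0 and 14 CPM (a log2 fold change of 0.08, 95% interval -0.11 to 0.27).

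The receptors showed the best-measured change of the set, the rise of Fzd7. Of 12 tested receptor and co-receptor genes Fzd7, Fzd2 and Fzd8 rose, Fzd9 and Fzd10 fell and 7 did not pass. Of all tested genes 11.1% rose and 10.8% fell. Fzd7, a Frizzled receptor highly expressed in pluripotent cells, went from 155, 149 and 144 CPM to 347, 426 and 376 CPM. The lowest 4OHT library was more than 2 times the highest vehicle library, and the fitted rise was 2.49-fold (log2 fold change 1.32, SE 0.07, 95% interval 1.18 to 1.45, edgeR adjusted p = 8.67e-12). The shallow library held 224 of its reads. Fzd2, a receptor used by WNT5A in several cell types, went from 4.5, 4.90 and 4.14 CPM to 8.51, 19.0 and 10.5 CPM, again without overlap (log2 fold change 1.09, SE 0.13, edgeR adjusted p = 2.97e-06). Fzd8, a Frizzled receptor, went from 3.01, 2.55 and 2.72 CPM to 4.51, 9.51 and 5.14 CPM (a log2 fold change of 0.78, SE 0.15, edgeR adjusted p = 0.000509). In both Fzd2 and Fzd8 the highest value is that of 4OHT replicate 2, where it rests on 10 and 5 reads, and DESeq2 called Fzd2 but not Fzd8 (adjusted p = 0.102).

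The falls among the receptors were small. Fzd9 stood at 4.67, 4.80 and 4.53 CPM in vehicle and 3.40, 3.80 and 3.43 CPM in 4OHT cells. The groups did not overlap, although the 3.80 CPM of 4OHT replicate 2 is 2 reads (log2 fold change -0.45, SE 0.13, edgeR adjusted p = 0.0182). The edgeR adjusted p was 0.0727, 0.0694 and 0.0897 without vehicle replicate 1, vehicle replicate 2 and 4OHT replicate 1. Fzd10 stood at 20.1, 21.8 and 20.7 CPM and at 16.6, 24.7 and 18.1 CPM (a log2 fold change of -0.25, SE 0.09, edgeR adjusted p = 0.0416). It is the only called gene of the set whose groups overlapped, through 13 reads in 4OHT replicate 2, and its adjusted p was 0.0557 with edgeR's own filter on low counts. Leaving out any 1 of the vehicle libraries or 4OHT replicate 1 took its adjusted p to between 0.0623 and 0.253. DESeq2 called neither Fzd9 (adjusted p = 0.638) nor Fzd10 (0.685). It did not call them without 4OHT replicate 2 (0.0921 and 0.0837), and limma-voom did not call them.

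Fzd5, the other abundant Frizzled receptor, stood at 314, 313 and 315 CPM in vehicle and 298, 308 and 324 CPM in 4OHT cells. The values of the groups overlapped, and the log2 fold change of -0.02 had an interval of -0.14 to 0.10. A gene on the other strand, Gm38058, overlaps 17.8% of the exon bases of Fzd5, and how strand was used in counting is not stated in the labels. The co-receptor genes did not pass either. Lrp5 stood at 79.8, 76.7 and 70.2 CPM and at 72.4, 72.3 and 70.8 CPM (interval of the log2 fold change -0.21 to 0.06). Lrp6 stood at 105, 97.6 and 98.3 CPM and at 103, 87.5 and 90.0 CPM (interval -0.20 to 0.08). Fzd1, Fzd3, Fzd4 and Fzd6 had log2 fold changes between -0.16 for Fzd6 and 0.26 for Fzd4.

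Per length, the order of the Frizzled genes in vehicle cells was Fzd5 (45.4 ± 0.157 CPM per kb of exon; SD, n = 3), Fzd7 (32.9 ± 1.17), Fzd10 (6.42 ± 0.265), Fzd9 (2.03 ± 0.0589), Fzd6 (1.56 ± 0.0775), Fzd3 (1.3 ± 0.0274) and Fzd2 (1.23 ± 0.103), followed by Fzd4 (0.501 ± 0.0487), Fzd8 (0.462 ± 0.0388) and Fzd1 (0.234 ± 0.0274). Fzd3 and Fzd2, and Fzd4 and Fzd8, are neighbours that lie within their spread. In 4OHT cells Fzd7 stood first with 84.5 ± 8.81 CPM per kb and Fzd5 second with 44.8 ± 1.87. The share of Fzd7 in the Frizzled total per length went from 36.7%, 35.5% and 35.0% in vehicle to 57.6%, 59.1% and 57.7% in 4OHT cells, and that of Fzd5 from 48.8%, 49.1% and 50.2% to 32.4%, 28.0% and 32.5%. The total itself went from 92.1 ± 1.17 to 145 ± 13.0 CPM per kb (SD, n = 3).

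**Figure D2:**
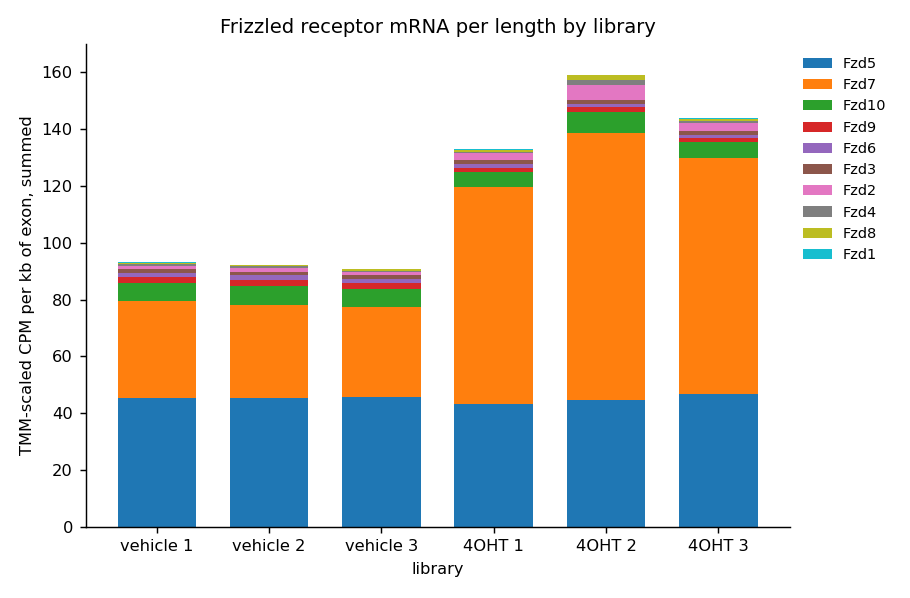
Stacked bars give the CPM per kb of exon of the 10 Frizzled genes in each of the 6 libraries (3 vehicle, 3 4OHT). The Fzd5 part has about the same height in all bars, the Fzd7 part grows from a mean of 32.9 to 84.5 CPM per kb, and the other 8 genes are thin bands.

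In the R-spondin branch, which raises receptor levels by holding off the ubiquitin ligases RNF43 and ZNRF3, 1 of 7 tested genes passed. Of all tested genes 21.9% did. Lgr4, a receptor for R-spondins, went from 92.2, 91.8 and 92.7 CPM to 104, 112 and 110 CPM, with a narrow spread in both groups and no overlap (log2 fold change 0.22, SE 0.06, edgeR adjusted p = 0.0109; 0.0650 without vehicle replicate 2 and 0.0909 in DESeq2). Znrf3 stood at 19.3, 20.3 and 18.3 CPM and at 22.2, 15.2 and 22.8 CPM, where the low value is 8 reads in 4OHT replicate 2 (log2 fold change 0.21, edgeR adjusted p = 0.0769, and 0.0285 when same-numbered libraries were paired). Rnf43 had 0.729 ± 0.104 CPM in vehicle and a log2 fold change of -0.08 (interval -0.65 to 0.49). Of the ligands Rspo1 had a log2 fold change of 0.30 (interval -0.08 to 0.68), and Rspo3 and Rspo4 had at most 27 reads in any library. Lgr5, a receptor and target gene, had 10, 1 and 3 reads in vehicle and 2, 0 and 2 in 4OHT cells, so the interval of its log2 fold change, -2.93 to -0.09, is wide, and the edgeR adjusted p was 0.123.

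The secreted inhibitors changed in opposite directions: Dkk1, Sfrp2 and Notum rose, Sfrp5 fell, and Sfrp1, Sfrp4, Dkk3 and Wif1 did not pass. Of all tested genes 11.1% rose and 10.8% fell. Dkk1, which blocks the co-receptors LRP5 and LRP6 and whose promoter is printed above, had 6, 1 and 0 reads in vehicle and 47, 2 and 49 reads in 4OHT cells, which is 0.113, 0.05 and 0 CPM against 0.858, 3.80 and 1.58 CPM. Every 4OHT library was above every vehicle library, and the fitted rise was 15.9-fold (log2 fold change 3.99, SE 0.50, 95% interval 2.96 to 5.02, edgeR adjusted p = 3.34e-06). Without 4OHT replicate 2, in which the value is 2 reads, the log2 fold change was 3.98 (edgeR adjusted p = 0.000225). The size of the rise rests on the few vehicle reads: it was 5.49 on the log2 scale without vehicle replicate 1, which holds 6 of them, and 3.57 without vehicle replicate 3. Even after the rise the gene was scarce, and it was tested only through its counts in 4OHT replicate 1. Sfrp5, a decoy that binds WNT proteins, went from 7.51, 8.14 and 8.21 CPM to 2.90, 5.71 and 3.36 CPM. This was the largest fall among the genes that passed, with no overlap (log2 fold change -1.34, SE 0.13, edgeR adjusted p = 1.23e-07), and the 5.71 CPM in the shallow library is 3 reads.

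Sfrp2, another decoy of this family, moved the other way, from 6.64, 6.20 and 5.60 CPM to 9.89, 7.61 and 10.6 CPM. The groups did not overlap (log2 fold change 0.71, SE 0.11, edgeR adjusted p = 5.49e-05; 0.0537 in DESeq2). Notum, which inactivates WNT proteins by removing their lipid and is itself a target gene, went from 19.3, 17.3 and 19.2 CPM to 29.1, 34.2 and 27.1 CPM. Here too the groups did not overlap (log2 fold change 0.60, SE 0.08, edgeR adjusted p = 8.68e-06). Genes on the other strand overlap 16.1% of the exon bases of Sfrp2 (Gm26771) and 29.4% of those of Notum (Notumos), so a part of these reads could be theirs. Sfrp1 was by far the most abundant Sfrp gene per length, with 79.1% ± 0.571 of the Sfrp total in vehicle and 79.9% ± 0.781 in 4OHT cells (SD, n = 3), and its levels overlapped: 140, 133 and 130 CPM against 125, 143 and 124 CPM (interval of the log2 fold change -0.22 to 0.03). The share of Sfrp5 in that total went from 10.8% ± 0.847 to 5.54% ± 1.65 and that of Sfrp2 from 7.34% ± 0.396 to 11.8% ± 2.68. Dkk3, a divergent member of its family, had 7.38 ± 0.168 CPM in vehicle and a log2 fold change of -0.17 (interval -0.39 to 0.06).

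**Figure D3:**
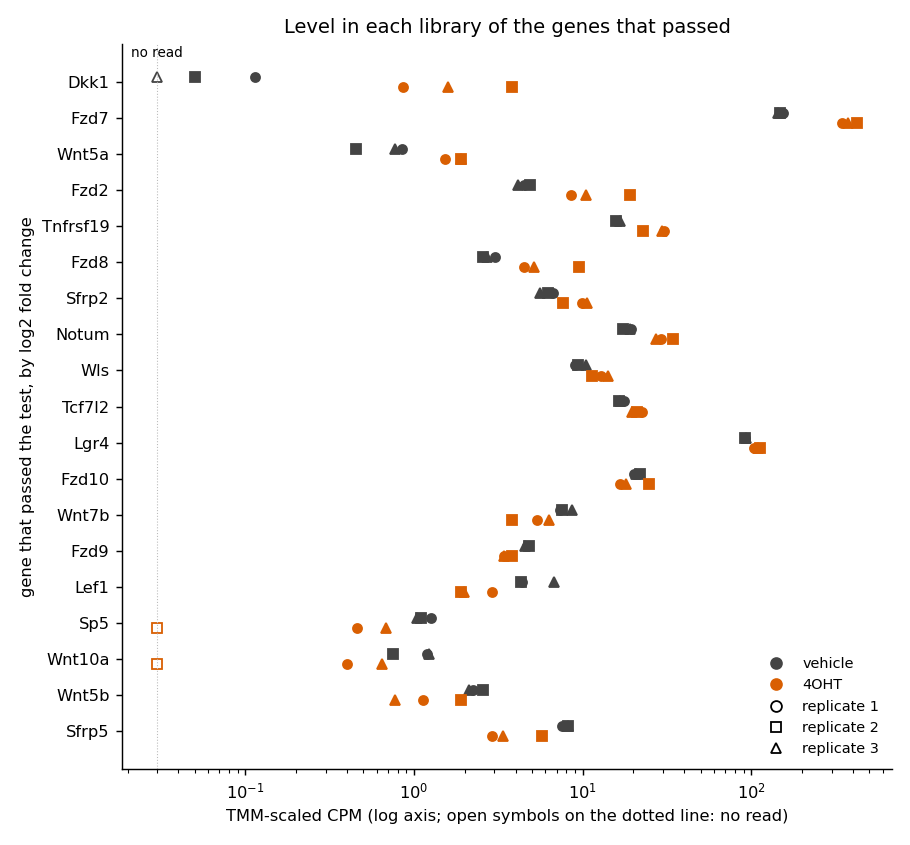
CPM in each library (log axis) of the 19 genes that passed, ordered by log2 fold change; grey is vehicle, orange 4OHT, and the symbol gives the replicate. Groups are apart for 18 of the 19, with Fzd10 the exception. The squares of 4OHT replicate 2, the shallow library, often lie away from the other 4OHT points. For Wnt10a and Sp5 that library held no read.

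The destruction complex and its cytoplasmic feedback genes gave no call among 6 tested by edgeR, beside 21.9% of all tested genes called. With 6 genes, an absence of calls cannot be set apart from that share. None of the 6 was below an adjusted p of 0.05 in DESeq2 or with the replicate block either, and Axin2 alone had an edgeR interval that left out 0. Axin2, a scaffold of the complex and the most widely used reporter of β-catenin signalling, stood at 7.91, 7.19 and 7.60 CPM in vehicle and 6.43, 13.3 and 5.98 CPM in 4OHT cells. The values of 4OHT replicates 1 and 3 lay below all vehicle values and that of replicate 2, 7 reads, above them (log2 fold change -0.27, interval -0.52 to -0.02, edgeR adjusted p = 0.123). Gsk3b, the kinase of the complex, stood at 72.7, 68.8 and 70.7 CPM and at 74.7, 72.3 and 75.1 CPM (a log2 fold change of 0.08, interval -0.05 to 0.20). Axin1 and Apc, the other scaffolds, had intervals of -0.07 to 0.21 and -0.22 to 0.18. Nkd1 and Nkd2, which bind dishevelled and restrain the pathway, were low (1.67 ± 0.325 and 2.16 ± 0.200 CPM in vehicle), with intervals of -0.42 to 0.44 and -0.29 to 0.41.

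Of the 4 nuclear factors Lef1 fell, Tcf7l2 rose and Tcf7l1 and Tcf7 did not pass, beside 21.9% of all tested genes called. Lef1, a TCF/LEF factor that is also a target gene, went from 4.37, 4.30 and 6.75 CPM to 2.88, 1.90 and 1.97 CPM. The groups did not overlap, although the 1.90 CPM of 4OHT replicate 2 is a single read. The fitted fall of Lef1 was 2.03-fold (log2 fold change -1.02, SE 0.19, edgeR adjusted p = 0.000464). A gene on the other strand, Gm43352, overlaps 13.7% of its exon bases, and its adjusted p in DESeq2 was 0.0658. Tcf7l2, a TCF/LEF factor that acts with β-catenin, went from 17.6, 16.5 and 16.6 CPM to 22.5, 20.9 and 19.7 CPM (a log2 fold change of 0.32, SE 0.08, edgeR adjusted p = 0.00865). Its edgeR adjusted p was 0.0775 without 4OHT replicate 1, and its adjusted p in DESeq2 was 0.299. Tcf7l1, the repressor of pluripotency genes, stood at 36.5, 36.8 and 34.9 CPM and at 38.5, 51.4 and 40.4 CPM. These groups did not overlap, but the difference did not pass (log2 fold change 0.14, edgeR adjusted p = 0.161). Tcf7, the most abundant of the 4 per length in vehicle cells (19.1 ± 0.844 CPM per kb, beside 9.19 ± 0.262 for Tcf7l1, 1.93 ± 0.0690 for Tcf7l2 and 0.585 ± 0.159 for Lef1), had an interval of -0.19 to 0.10.

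Genes known as targets or feedback inhibitors of β-catenin and TCF/LEF went in both directions. Of 12 tested, Dkk1, Tnfrsf19 and Notum rose, Lef1 and Sp5 fell and Axin2, Tcf7, Nkd1, Nkd2, Lgr5, Rnf43 and Znrf3 did not pass. Of all tested genes 11.1% rose and 10.8% fell, so calls in both directions are not particular to these 12. Dkk1 was tested only through its 4OHT counts and Lgr5 only through its vehicle counts. The median log2 fold change of the 12 was -0.02 beside -0.01 over all tested genes. Tnfrsf19, a receptor of the tumour necrosis factor family, stood at 15.7, 15.8 and 16.6 CPM and at 30.4, 22.8 and 29.6 CPM, without overlap (log2 fold change 0.90, SE 0.08, edgeR adjusted p = 2.51e-08). Sp5, a zinc finger factor and direct target whose promoter holds 2 CTTTGA matches, had 67, 22 and 27 reads in vehicle and 25, 0 and 21 reads in 4OHT cells. In CPM this was 1.27, 1.10 and 1.04 against 0.456, 0 and 0.679 (a log2 fold change of -1.10, SE 0.27, edgeR adjusted p = 0.00477). The edgeR adjusted p was 0.105 without 4OHT replicate 1. DESeq2 gave Sp5 no value, and without 4OHT replicate 2 it gave an adjusted p of 0.0595. The 3 promoters with matches printed above thus belong to genes that rose (Dkk1, Tnfrsf19) and to a gene that fell (Sp5).

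For 16 of the 35 genes that did not pass, the 95% interval of the log2 fold change lay within 0.5 of 0 on both sides: Apc, Axin1, Gsk3b, Nkd1, Nkd2, Porcn, Tcf7, Tcf7l1, Znrf3, Fzd3, Fzd5, Fzd6, Lrp5, Lrp6, Dkk3 and Sfrp1. For the other 19 the interval reached further. It left out 0 for Axin2, Wnt6 and Lgr5, and for the other 16 a larger change could not be told from none at this depth. Among the genes with intervals within 0.5 of 0, only that of Znrf3 left out 0 (0.04 to 0.38).

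Of 78 other genes of the pathway, 74 were tested, and 17 rose, 6 fell and 51 did not pass (31.1% called beside 21.9% of all tested genes). This list too was chosen with earlier results of these data known. Sost, Sostdc1, Ndp and Fgf9 were under the count limit. The median log2 fold change of the 74 was 0.11. In the cytoplasm 2 of 22 rose and 2 fell, on the membrane and outside the cell 7 of 17 rose and 2 fell, in the nucleus 3 of 15 rose and none fell, in the polarity branch 3 of 11 rose and 1 fell, and among further target genes 2 of 9 rose and 1 fell. For the nuclear list, in which edgeR called no fall, no member was lower in DESeq2 and only Pygo2, picked after its value was seen and lower with same-numbered libraries paired (adjusted p = 0.0125), had a log2 fold change under 0 with an unadjusted edgeR p under 0.05.

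Frzb, a secreted decoy of the Sfrp family, reached the count limit only in 4OHT replicate 1, so being tested at all was tied to its difference. It had 4, 4 and 4 reads in vehicle and 143, 0 and 95 reads in 4OHT cells, or 0.0757, 0.200 and 0.153 CPM against 2.61, 0 and 3.07 CPM (a log2 fold change of 4.46, SE 0.32, edgeR adjusted p = 1.52e-09). The groups overlap because of the library in which 1 read is worth 1.90 CPM. Gpc3, a cell-surface proteoglycan that binds WNT proteins, fell from 54.8, 55.9 and 58.2 CPM to 29.6, 22.8 and 29.5 CPM (a log2 fold change of -0.94, SE 0.07, edgeR adjusted p = 1.68e-09), with no overlap. Tpbg, a membrane glycoprotein gene that restrains WNT signalling through LRP6, rose with a log2 fold change of 0.67 (edgeR adjusted p = 0.000108), although its groups overlapped through 4 reads in 4OHT replicate 2 and its adjusted p in DESeq2 was 0.0844, and an opposite-strand gene overlaps 23.5% of its exon bases.

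Prickle1, a core gene of planar cell polarity, rose from 2.50, 2.65 and 2.15 CPM to 5.24, 11.4 and 6.66 CPM (a log2 fold change of 1.29, SE 0.16, edgeR adjusted p = 2.53e-06). Vangl1 of the same branch rose with a log2 fold change of 0.39 and Celsr1 fell with -0.39 (edgeR adjusted p = 6.72e-05 and 0.000344); the groups overlapped for Celsr1 and not for Vangl1, and DESeq2 gave Celsr1 an adjusted p of 0.0503. Ror1 and Ror2, receptors for WNT5A, were picked after their values were seen: their log2 fold changes were 1.44 and 0.31 (edgeR adjusted p = 0.000703 and 0.00502). DESeq2 gave Ror2 an adjusted p of 0.171 and gave none for Ror1. Ror1 was scarce, with 24, 8 and 17 reads in vehicle and 63, 0 and 52 in 4OHT cells.

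Inside the cell, the dishevelled-binding genes Dact1 and Dact2 fell with log2 fold changes of -0.86 and -0.51 (edgeR adjusted p = 3.19e-05 and 4e-05), and 34.9% of the exon bases of Dact1 are overlapped by an opposite-strand gene. Btrc, the ubiquitin ligase subunit that recognises marked β-catenin, had a level of 44.0 ± 0.870 CPM in vehicle and 56.6 ± 3.11 CPM in 4OHT cells (SD, n = 3), a rise of 0.40 on the log2 scale with an edgeR adjusted p = 6.8e-05. Ctnnb1, the gene of β-catenin, stood at 1239, 1270 and 1291 CPM in vehicle and 1199, 1191 and 1288 CPM in 4OHT cells. These values overlapped (log2 fold change -0.04, interval -0.16 to 0.08). Dvl2, a dishevelled gene, did not pass (log2 fold change 0.15, edgeR adjusted p = 0.0785, and 0.0416 with the replicate block), and Ccnd1, a cyclin gene often listed as a target, fell from 244, 241 and 248 CPM to 195, 190 and 194 CPM (a log2 fold change of -0.33, SE 0.06, edgeR adjusted p = 0.000195). Opposite-strand genes overlap 14.6% of the exon bases of Ctnnb1, 18.3% of those of Dvl2 and 23.4% of those of Ccnd1.

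**Figure D4:**
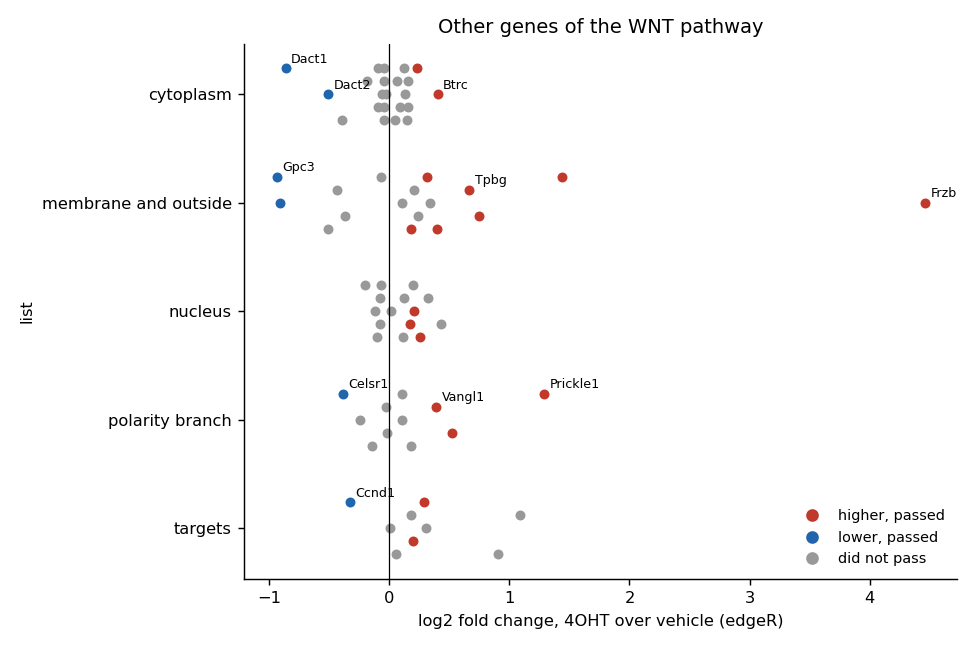
Log2 fold change of 4OHT over vehicle for the 74 other tested pathway genes in 5 lists (vertical position within a list has no meaning); red rose, blue fell, grey did not pass. Frzb, tested only through its 4OHT counts, stands at 4.46, and the list of the membrane and outside of the cell spreads most.

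Markers of other cell types moved as well, and their counts stand beside 11.1% higher and 10.8% lower of all tested genes in edgeR. All 9 primitive endoderm markers (Gata6, Gata4, Sox17, Sox7, Pdgfra, Dab2, Foxa2, Cubn and Srgn) were higher after 4OHT in edgeR, and their summed level was 7 to 8.25 CPM in vehicle and 47.6 to 67.3 CPM in 4OHT cells. None of the 9 was at 0 in all libraries of a group, and Gata4, Sox17 and Sox7 had no read in 4OHT replicate 2. DESeq2 called 7 of the 9, not Sox7 (adjusted p = 0.838) or Foxa2 (0.136), and Sox7 had an edgeR adjusted p of 0.132 without 4OHT replicate 1. Sox17 and Srgn, with 6 and 8 counts in vehicle replicate 1, reached the count limit only through 4OHT replicate 1. This rise stands beside those of Dkk1, Frzb, Fzd7 and the other genes named above, and its part in them was not tested. In bulk RNA a larger share of cells of a type and more RNA per cell cannot be told apart. For the neuroectoderm list (Pax6, Sox1, Neurog2, Ncam1 and Tubb3) the sum was 137 to 146 CPM in vehicle and 80.5 to 87.5 CPM in 4OHT cells. Most of it was Tubb3 (mean 113 CPM in vehicle and 71.5 CPM in 4OHT cells). Of 4 tested genes 1 was higher (Sox1) and 2 lower (Ncam1 and Tubb3). Neurog2 had no read in vehicle. Pax6, which did not pass (edgeR adjusted p = 0.0541), was lower with same-numbered libraries paired (0.0292). The fibroblast list (Col1a1, Col1a2, Thy1, Pdgfrb, Acta2 and Lum) summed to 24.4 to 26.4 and 14.3 to 19.0 CPM. In vehicle most of it was Thy1 (mean 15.9 CPM, and 6.64 CPM in 4OHT cells). None of 5 tested genes was higher, Thy1 was lower and Lum had no read in vehicle. No gene of the fibroblast list was higher in DESeq2, and Col1a2 alone was higher at an unadjusted edgeR p under 0.05 (adjusted p = 0.105, and 0.0368 with same-numbered libraries paired). The trophoblast list (Cdx2, Eomes, Elf5, Tfap2c, Hand1 and Krt8) summed to 94.7 to 98.5 and 98.4 to 107 CPM. Most of it was Tfap2c (mean 74.1 CPM in vehicle and 85.4 CPM in 4OHT cells). Of 5 tested genes 2 were higher (Tfap2c and Hand1) and 1 lower (Krt8). The primitive streak list (T, Mixl1, Eomes, Gsc, Evx1 and Mesp1) summed to 12 to 12.4 and 11.2 to 20.9 CPM, with 1 of 6 higher (Gsc) and 1 lower (Evx1). In vehicle most of it was Eomes, also in the trophoblast list (mean 9.42 CPM, and 8.80 CPM in 4OHT cells). The 20.9 CPM is that of 4OHT replicate 2, the shallow library, and 4OHT replicates 1 and 3 summed to 12.5 and 11.2 CPM. Of the marker calls outside the primitive endoderm list, DESeq2 did not make those of Sox2, Utf1, Gsc, Sox1 and Tfap2c and gave no adjusted p for Evx1 and Hand1. T and Mixl1 are themselves WNT targets in the streak, T had no read in 4OHT replicate 2, and neither passed.

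**Figure D5:**
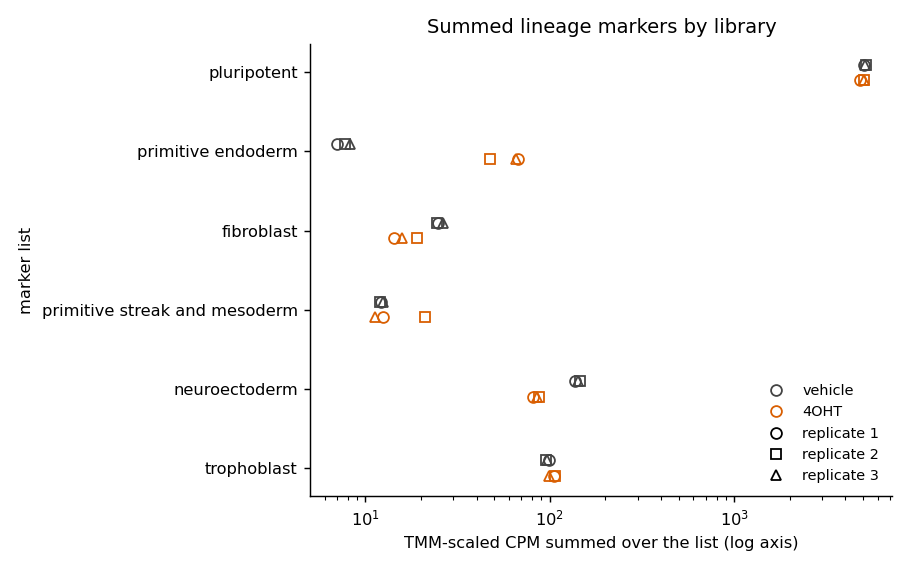
CPM summed over each marker list (log axis) in every library; grey is vehicle, orange 4OHT, and the symbol gives the replicate. The primitive endoderm sum lies at 7 to 8.25 CPM in vehicle and 47.6 to 67.3 CPM in 4OHT cells, and the pluripotent sum lies at 4765 to 5168 CPM in all 6 libraries.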

How the data were processed

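PolyA RNA of 6 samples was measured by RNA-seq. The deposited values are whole-number counts per gene symbol; reads were aligned to mm9 with STAR and handled with DESeq, per the submitters' processing notes. No label or note used here names the counting tool, the annotation or the strand setting (each is not given in the sources used here). Genes with 10 or more counts in vehicle replicate 1 or 4OHT replicate 1 were tested (15814 of 23999) with TMM scaling and edgeR 4.0.16's quasi-likelihood test in R 4.3.3, 4OHT against vehicle, with Benjamini-Hochberg adjustment over all tested genes and a threshold of 0.05. The standard error is the log2 fold change over the root of F, and intervals are 95%. CPM used full library totals, and CPM per kb used the union of exons in GENCODE vM21. Library totals ran from 515388 to 55194644, which sets the precision of low genes.

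Alternatives were edgeR's own filter, no filter, DESeq2 size factors, DESeq2 1.42.0, limma-voom with quantile scaling (limma 3.58.1), the replicate number as a block, each library left out, and, chosen after seeing the data, DESeq2 without 4OHT replicate 2. Over 3648 well-covered genes, deviations from the group means correlated between same-numbered libraries (r = 0.57, 0.14 and 0.39). Vehicle replicate 2 also correlated with 4OHT replicate 3 (r = 0.45), above its own number, and no label says what a number marks. The numbers pair the samples only in the alternative with the block, and the main test was unpaired. On simulated counts for this comparison (15814 genes, 200 changed, 3 draws) the test recovered 71.1% of 1.5-fold, 84.6% of 2-fold and 97.8% of 4-fold changes. It called 6 to 8 unchanged genes per draw. The changed genes were drawn from all tested genes and simulated with a dispersion set by level alone, so the rates do not describe the scarce genes of the set. The genes and lists were chosen with earlier results of these data known. Full values are given for each gene of the set that passed, and for Axin2, Tcf7l1, Lrp5, Lrp6, Porcn, Gsk3b and the most abundant Wnt and Fzd gene per length whatever their result. Of the other pathway genes, the 10 with the smallest adjusted p, Ctnnb1, Dvl2 and Ccnd1 are named.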

Additional observations from a re-analysis of the deposited data

How the results depend on the processing

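Calls depended most on the tool. The main test gave 1751 higher and 1713 lower genes in all, 11 and 8 in the WNT set and 17 and 6 in the other pathway list. DESeq2 called 567 and 410 in all, 5 and 1 in the set, and 6 and 4 in the other list. DESeq2 kept 6 of the 17 called genes of the set for which it gave a value (Fzd7, Fzd2, Dkk1, Notum, Tnfrsf19 and Sfrp5). Limma-voom with quantile scaling called 989 lower genes in all and 4 lower in the set, and DESeq2 without 4OHT replicate 2 (chosen after seeing the data) 1134 and 4. The cause was not tested. With the replicate number as a block, 2123 genes were higher and 2218 lower in all, 12 and 9 in the set, and 20 and 8 in the other list; among the genes named, the block gained Wnt6, Znrf3, Dvl2, Pygo2, Pax6 and Col1a2 and changed no other call. Leaving out each library gave 1284 to 2069 higher and 1194 to 2176 lower genes in all, 10 to 13 and 5 to 9 in the set (5 without 4OHT replicate 1), and 10 to 21 (10 without vehicle replicate 2) and 6 to 9 in the other list. All 19 called genes of the set were kept without 4OHT replicate 2, and 13 without 4OHT replicate 1. Log2 fold changes near 0 changed sign: over the libraries left out, Lrp6 ran from -0.144 to 0.0241, Fzd5 from -0.0679 to 0.0456 and Ctnnb1 from -0.081 to 0.00028, and Ctnnb1 was 0.0167 in limma-voom. In 4OHT replicate 2, 14 of the 54 tested genes had no read, so changes of scarce ligands were not detectable there.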
